A study of Salmo salar with 40 samples.

Results

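Messenger RNA of 4 genes for secreted proteins of immune defence was followed in the liver of 40 Atlantic salmon, as 4 of the 79140 gene entries of a table of read counts. The genes are LOC106570622 (CD5 antigen-like), LOC106571174 (leucine-rich alpha-2-glycoprotein-like), LOC106574502 (interleukin-27 subunit beta-like) and LOC106604501 (ribonuclease-like 3). They were selected on their read counts at day 14, which were lower with exposure than without it. That comparison therefore chose the genes and is given here as a description, without a test. The fish were given lufenuron, a benzoylurea inhibitor of chitin formation used to treat sea lice, at a dose of 5 mg/kg, or none. Livers were taken at day 8, when treatment had been over for 1 day, and at day 14, when it had been over for 7 days. Each of the 4 groups held 10 fish: control fish at day 8, exposed fish at day 8, control fish at day 14 and exposed fish at day 14. No genotype or strain is given. Body weight, which is, ran from 34 to 44 g at day 8, from 35 to 66 g in exposed fish at day 14 and from 17 to 67 g in the controls of that day, of which fish 6, 7 and 10 weighed 18, 18 and 17 g. By the labelled lengths, fish 7 and 10 were about as long as much heavier fish, and only fish 6 was short. The weights of fish 7 and 10 are therefore uncertain. Tanks were not given in the labels, and p-values measure only how these fish varied.

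The liver makes most of the proteins of blood plasma, and many of its secreted proteins act in innate defence. Interleukin-27 subunit beta, also called EBI3, is a soluble cytokine receptor-like chain that pairs with a separate alpha chain in mammals to form a cytokine of the interleukin-6 and interleukin-12 family, which signals through JAK kinases and STAT factors. CD5 antigen-like protein is a secreted scavenger receptor cysteine-rich (SRCR) protein that in mouse and human is made by tissue macrophages and travels bound to immunoglobulin M. Leucine-rich alpha-2-glycoprotein is a plasma protein of liver and neutrophils that in mouse and human modifies signalling by transforming growth factor beta (TGF-beta). Ribonuclease-like 3 belongs to the secreted vertebrate ribonucleases related to angiogenin, of which zebrafish members kill bacteria and promote vessel growth.

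Depth was 43.4 to 76.8 M (mega) assigned reads per fish (median 56.7 M), and 30397 genes passed a filter on low counts. All 4 genes had reads in all 40 fish and passed it. Levels are given as CPM, the usual scaling of read counts to library size, with library sizes corrected by the trimmed mean of M-values (TMM). In these units 1 CPM stands for at least 41.8 reads. The 4 genes had 2301 reads or more in each fish, which leaves little counting error next to the differences among fish. In genes under 1 CPM, some of which are named below, counting error is larger. Tests used edgeR's quasi-likelihood model over all 40 fish with Benjamini-Hochberg adjustment over the 30397 genes and a threshold of 0.05. Hepatocyte markers, a check on the labelled tissue, were abundant (49 genes, 1 of them at 0 in all fish, summing to 114757 CPM or more).

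The cytokine chain, LOC106574502, held 0.007% of all reads. Its level was 58.8 to 114 CPM in control fish at day 14 (median 73.8) and 31.5 to 64.6 CPM in exposed fish at day 14 (median 53.1). Each of the 10 exposed fish had less than the control median and 8 lay below the lowest control, while 7 controls lay above the highest exposed fish, so the ranges overlapped in few fish. The fitted log2 fold change of exposed over control fish at day 14 was -0.66 ± 0.17 (SE, 10 fish per group). At day 8 the level was 49.5 to 101 CPM in controls (median 73.2) and 46.5 to 136 CPM in exposed fish (median 72.5), and 5 of the 10 exposed fish lay below the control median. The day 14 exposed fish were thus the lowest group by median, followed by the day 8 exposed, day 8 control and day 14 control fish. The last 3 of these groups had medians between 72.5 and 73.8 CPM, and all neighbouring ranges overlapped.

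LOC106570622, the CD5 antigen-like gene, varied widely from fish to fish, with a coefficient of variation of 33.2% to 65% within the groups, beside 31.5% to 57.5% for LOC106571174. Control fish at day 14 ranged from 624 to 4723 CPM with a median of 1718, and exposed fish at day 14 from 354 to 1314 CPM with a median of 612. Every exposed fish (10 of 10) had less than the control median, 5 of them were below the lowest control, and 6 controls were above the highest exposed fish. The fitted log2 fold change at day 14 was -1.37 ± 0.32 (SE), and the exposed median was 0.356 of the control median. Control fish 7 at day 14, labelled 18 g and with 4723 CPM, stood apart from its group, and without it the log2 fold change was -1.08. At day 8 the controls ranged from 538 to 1983 CPM (median 1215) and the exposed fish from 319.7 to 2319.5 CPM (median 949). The day 8 ranges overlapped almost fully, with 7 of 10 exposed fish below the control median. By median the order was day 14 exposed, day 8 exposed, day 8 control and day 14 control fish, and the ranges of all neighbours in that order overlapped.

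LOC106571174, the leucine-rich alpha-2-glycoprotein-like gene, had an exposed median of 1.9 times the control median at day 8 and of 0.434 times at day 14. At day 8 the controls had 121 to 363 CPM (median 169.5) and the exposed fish 109 to 464 CPM (median 322). At day 14 the controls had 113 to 674 CPM (median 287) and the exposed fish 81 to 279.7 CPM (median 125). The exposed fish were mostly high at day 8, with 1 of 10 below the control median, and low at day 14, with all 10 below it and 5 below the lowest control. The log2 fold change was -1.14 ± 0.29 at day 14 and 0.59 ± 0.29 at day 8 (SE). The order of medians was day 14 exposed, day 8 control, day 14 control and day 8 exposed fish, with overlapping ranges throughout.

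LOC106604501, the ribonuclease-like 3 gene, was the most heavily read of the 4, with 0.782% of all reads (0.598% to 1.05% in single fish) and rank 17 among all gene entries. Control fish at day 14 had 6854 to 9785 CPM (median 8362) and exposed fish 5895 to 7731 CPM (median 6362). As with the cytokine chain, 8 exposed fish lay below the lowest control, and 8 controls lay above the highest exposed fish. The log2 fold change at day 14 was -0.36 ± 0.099 (SE), the smallest of the 4, and the coefficient of variation among the exposed fish was 8.84% against 46.5% for the CD5 antigen-like gene. At day 8 the controls had 5649 to 9936 CPM (median 7938) and the exposed fish 6056 to 10819 CPM (median 8734), and 3 of 10 exposed fish lay below the control median. Its order of medians was that of the leucine-rich alpha-2-glycoprotein-like gene.

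**Figure D1:**
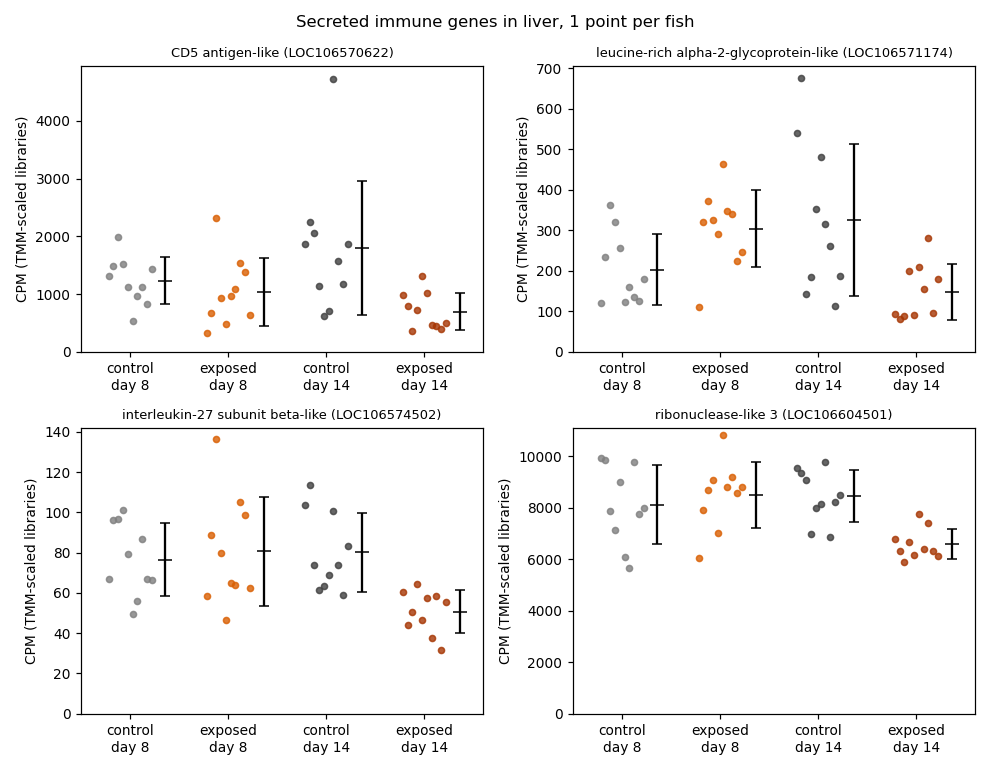
Level in CPM of each of the 4 genes in each fish, by group, with 1 point per fish and the mean ± SD of the 10 fish of a group. In every panel the 10 exposed fish at day 14 lie below the median of the day 14 controls (medians of 53.1 against 73.8 CPM for LOC106574502, and 6362 against 8362 CPM for LOC106604501). The ranges of control and exposed fish overlap at both days in every panel.

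A pattern with every exposed fish under the median of the controls at day 14 was found in 397 of the 30397 tested genes, or 1.31%, a share beside which the 4 chosen genes are to be read. At day 14 edgeR's quasi-likelihood test called no gene of the whole table (0%, smallest Benjamini-Hochberg adjusted p 0.117). Without adjustment 2437 genes had a p under 0.05, and 11 were called by DESeq2. The median log2 fold change of all genes was 0.0042 at day 14. Scaling by total counts alone in place of TMM moved that median by 0.18, and the log2 fold change of LOC106604501 was then -0.18, with the other 3 genes at -0.47 or lower. In whole liver tissue, fewer cells that make an RNA and less RNA per cell cannot be told apart.

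Marker genes of cell types were measured beside these differences. The 49 hepatocyte markers also had a lower median sum, with 114757 to 167844 CPM in exposed fish at day 14 (median 131576) and 140400 to 227131 CPM in the controls (median 170496), against day 8 medians of 165127 and 161902 CPM. The group ranges overlapped, and the share of this shift in the values of the 4 genes was not tested. The 59 macrophage and neutrophil markers, of which 7 were at 0 in all fish (6 entries for complement C1q subunit B and 1 eosinophil peroxidase entry), summed to 240.1 to 401 CPM in day 14 controls (median 292) and 253 to 616 CPM in day 14 exposed fish (median 288). Of the 44 tested, 5 had a log2 fold change below 0 at day 14. The median was 0.21, or 0.46 with total counts as the scaling. Relative to all genes, these medians were 0.21 and 0.27. The bearing of these markers on the CD5 antigen-like gene, at -1.37, was not tested. The 41 exocrine pancreas markers, 7 at 0 in all fish, summed to 4.49 to 113 CPM in day 14 controls (median 8.65) and 5.65 to 215 CPM in day 14 exposed fish (median 43). At day 8 that sum was 4.96 to 86.1 CPM in controls (median 8.09) and 5.52 to 135 CPM in exposed fish (median 27.9). With the 9 fish left out in which this sum passed 50 CPM, the day 14 log2 fold changes of the 4 genes lay between -1.81 and -0.39. Leaving out the 3 controls labelled as under 20 g gave -1.13 for LOC106570622, -1.14 for LOC106571174, -0.63 for LOC106574502 and -0.33 for LOC106604501. The part of cell makeup in the differences was otherwise not tested.

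The genes were selected on their day 14 values, so the day 8 comparison was tested. Earlier results of these data were known when the genes were chosen, so this test may not be fully independent of the choice. None of the 4 genes was called at day 8 (0 of 4, against 494 of 30397 genes, or 1.63%). At an unadjusted p under 0.05 were 4884 of the 30397 genes, and 1 of the 4. That gene was LOC106571174, whose log2 fold change of 0.59 ± 0.29 (SE, 95% interval 0.025 to 1.15) had an adjusted p of 0.305 in edgeR's quasi-likelihood test with Benjamini-Hochberg adjustment. For LOC106570622 the log2 fold change was -0.25 ± 0.31 (95% interval -0.87 to 0.36, adjusted p 0.756). The intervals of LOC106574502 (0.074 ± 0.16, from -0.25 to 0.40, adjusted p 0.873, and -0.0054 with total counts as the scaling) and of LOC106604501 (0.068 ± 0.099, from -0.13 to 0.26, adjusted p 0.797) both held 0. Scaling by total counts moved the day 8 median of all genes by -0.067. DESeq2 called none of the 4 either, with adjusted p-values from 0.236 to 0.862. Day 8 counts of unadjusted p-values in the gene lists below are to be read beside the 4884 of 30397 genes.

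**Figure D2:**
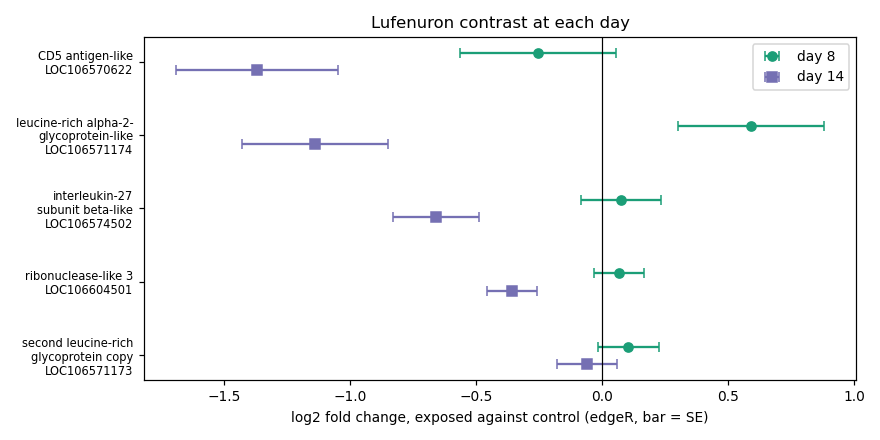
Log2 fold change of exposed over control fish, with its SE, at day 8 and day 14 for the 4 genes and for the second leucine-rich alpha-2-glycoprotein-like gene, LOC106571173. The day 14 values of the 4 genes run from -1.37 to -0.36 and are a description, since they chose the genes; LOC106571173 is at -0.059 ± 0.12.

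Between the sampling days the 2 treatments took different courses in the fitted values, which are descriptions too because they contain the day 14 fish. From day 8 to day 14 the log2 change in control fish was 0.55 ± 0.31 for LOC106570622, 0.69 ± 0.29 for LOC106571174, 0.067 ± 0.16 for LOC106574502 and 0.058 ± 0.099 for LOC106604501 (SE). In exposed fish it was -0.57 ± 0.31, -1.05 ± 0.29, -0.67 ± 0.17 and -0.37 ± 0.099 in the same order. For the leucine-rich alpha-2-glycoprotein-like gene, the fitted level was higher in controls and lower in exposed fish at day 14 than at day 8. For the CD5 antigen-like gene the control value depended on fish 7, without which it was 0.26 ± 0.30. For the other two, the day 14 controls were close to both day 8 groups, and the day 14 exposed fish were the group that stood low.

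The table holds a second entry with the same name as LOC106571174, and this copy gave the closest comparison within the data. At day 8 LOC106571173 had a mean of 521 ± 128 CPM without and 560.3 ± 109 CPM with exposure (SD, n = 10 each). At day 14 these means were 439 ± 58.9 and 422 ± 51 CPM (SD, n = 10 each). Its log2 fold change at day 14 was -0.059 ± 0.12 (SE, 95% interval -0.30 to 0.18, adjusted p 0.937), and at day 8 it was 0.10 ± 0.12 (adjusted p 0.737), both by edgeR's quasi-likelihood test with Benjamini-Hochberg adjustment. No test was made between the copies, since the day 14 value of LOC106571174 chose it. From day 8 to day 14 LOC106571173 fell by 0.41 ± 0.12 on the log2 scale in exposed fish (adjusted p 0.00742, 34.9% of all genes called in that comparison), and it had -0.25 ± 0.12 in controls (adjusted p 0.151, 19.3% called).

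Of the reads assigned to both copies, LOC106571174 took 15.3% to 37.2% (median 27.2%) in the controls of day 8 and 20.1% to 47.6% (36%) in the fish exposed and sampled then. At day 14 it took 23.4% to 63% (37.3%) of them in controls and 15.6% to 38.8% (25.3%) after exposure. The share was thus the lowest, by median, in day 14 exposed fish, next to the day 8 controls, and all 4 ranges overlapped. These are shares of reads, not per transcript length. The labels do not say how any reads common to both copies were assigned, and the split between the copies is uncertain. The copies were matched by name, and how alike their sequences are was not measured.

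**Figure D3:**
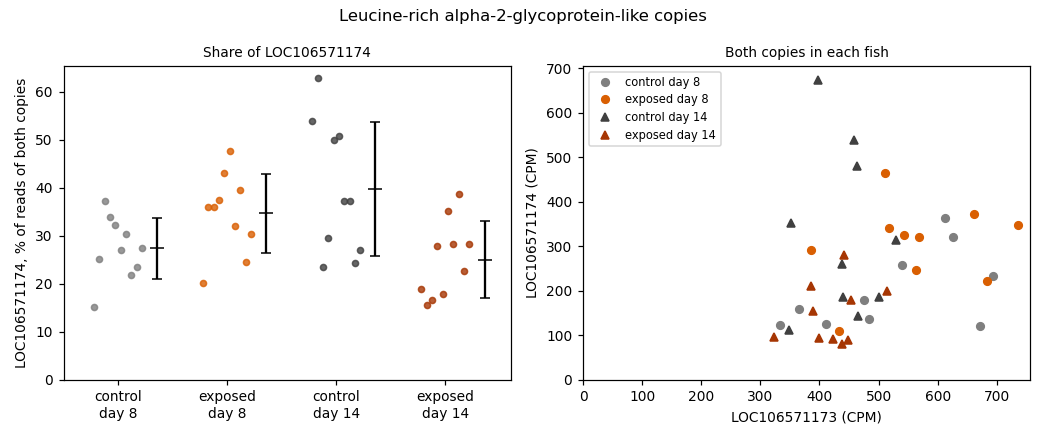
Left, share of LOC106571174 in the reads of both leucine-rich alpha-2-glycoprotein-like genes, in percent, 1 point per fish and by group; right, level in CPM of LOC106571174 against LOC106571173 in the 40 fish. Day 14 controls reach a share of 63%, and day 14 exposed fish stay at or below 38.8%, while the level of LOC106571173 differs little between the groups of a day.

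Other entries of the same names had few reads. Among 3 further CD5 antigen-like entries, LOC106594044 had 482 reads over all 40 fish, LOC106601386 had 61 and LOC106601382 had 29, against 2575518 for LOC106570622. LOC106594044 passed the filter on low counts, with 0.403 ± 0.388 CPM at day 14 without exposure and 0.145 ± 0.145 CPM with it (SD, n = 10 each), and its log2 fold change of -1.47 ± 0.60 had an adjusted p of 0.54 in edgeR's quasi-likelihood test. Of 4 further ribonuclease-like 3 entries, LOC106604507 had 5 reads, LOC106598104 had 2 and the others, LOC106598253 and LOC106604425, had 0. The cytokine chain had no second entry of its name, and its identifier carries the symbol ebi3 in the gene table of Ssal_v3.1, an assembly of the salmon genome. LOC106571174 has no entry in that gene table.

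Within groups, it was asked whether fish high in a member of the set were high in another, which the choice of genes did not fix, and no relation passed the threshold. Over 24 relations (6 pairs in each of 4 groups of 10 fish, log2 CPM), Pearson's r was positive in 23 and ranged from -0.146 to 0.824, and the lowest adjusted permutation p was 0.0559 (two-sided, 100000 resamples, Benjamini-Hochberg over the 24). The 24 relations share genes and fish and are not independent. How often r is positive between other genes in these groups was not measured. Over all fish, with each group centred on its mean, r was positive in every pair. It was 0.689 for the CD5 antigen-like gene and the cytokine chain. The cytokine chain had 0.512 with the leucine-rich alpha-2-glycoprotein-like gene and 0.488 with ribonuclease-like 3. The CD5 antigen-like gene had 0.507 with ribonuclease-like 3 and 0.244 with the leucine-rich alpha-2-glycoprotein-like gene. The latter and ribonuclease-like 3 had 0.379. These pooled values carry no test. The CD5 antigen-like gene and the cytokine chain had the highest r in day 8 exposed fish, 0.824 (Spearman's rho 0.867, permutation p 0.00318, adjusted 0.0559). Their r was 0.794 in day 8 controls (rho 0.758, permutation p 0.00466, adjusted 0.0559), 0.735 in day 14 controls (rho 0.77, adjusted 0.0704) and 0.347 in day 14 exposed fish (rho 0.273, adjusted 0.431). Leaving out the 2 fish farthest from the median of the CD5 antigen-like gene gave 0.753, 0.584, 0.688 and 0.565 in the same order.

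The leucine-rich alpha-2-glycoprotein-like gene and ribonuclease-like 3 had an r of 0.808 in day 8 exposed fish (rho 0.661, adjusted permutation p 0.0565) and of 0.675 in day 14 exposed fish (rho 0.624, adjusted permutation p 0.082). In the controls their r was 0.0472 at day 8 (rho -0.0909) and 0.331 at day 14 (rho 0.309). Without the 2 fish farthest from the median of the first gene, r was 0.636 and 0.265 in the exposed fish of day 8 and day 14. Leaving out the farthest fish narrows the range of that gene, which by itself can lower r. The CD5 antigen-like and leucine-rich alpha-2-glycoprotein-like genes had an r of 0.717 (rho 0.697) in day 8 controls and 0.635 (rho 0.612) in day 8 exposed fish, of which the latter was 0.122 without the 2 farthest fish. At day 14 their r was 0.02 (rho 0.139) in controls and -0.146 (rho -0.0424) in exposed fish. Differences between groups in these values were not tested. Body weight as labelled showed no relation that passed the threshold in 16 tests, with r from -0.248 to 0.334 (lowest adjusted permutation p 0.914).

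**Figure D4:**
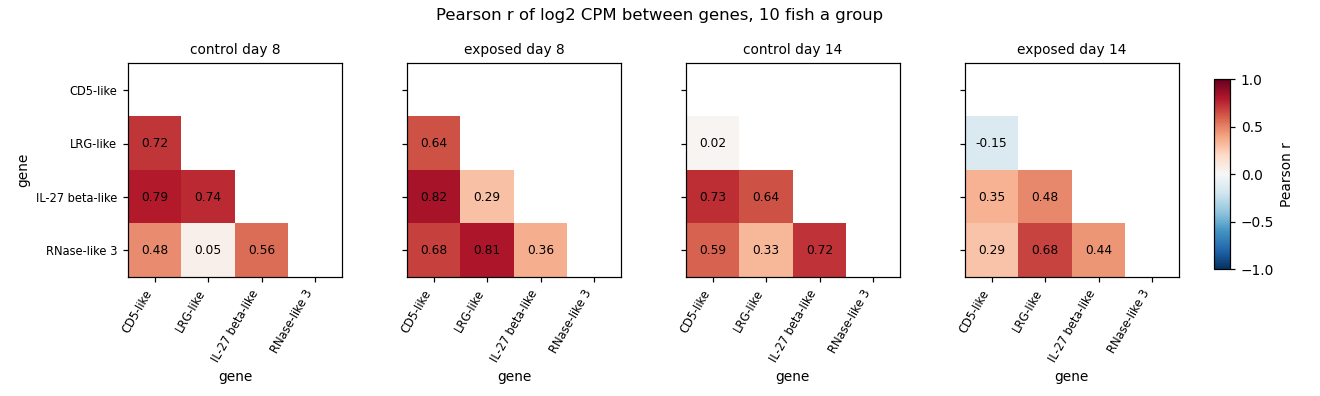
Pearson's r of log2 CPM between the 4 genes, in 4 panels of 10 fish each (1 panel per group). The pair of LOC106570622 and LOC106574502 is at 0.794 and 0.824 at day 8 and at 0.735 and 0.347 in day 14 control and exposed fish.

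Across all 40 fish, with each group centred on its mean, the genes most like each member by Pearson's r of log2 CPM were looked up among 21421 genes with a mean of at least 1 CPM. The cytokine chain was most like LOC106586883 (hemopexin-like, a heme-binding plasma protein, r = 0.87), LOC106569442 (zinc-binding protein A33-like, 0.852) and LOC106575321 (hemopexin-like, 0.845). The CD5 antigen-like gene was most like LOC106560506 (uncharacterized, 0.828), LOC106595673 (complement factor H-like, a complement regulator, 0.823) and LOC106581124 (fucolectin-6-like, a fucose-binding lectin, 0.82). For the leucine-rich alpha-2-glycoprotein-like gene these were LOC106587268 (B-cadherin-like, 0.772), p4hb (prolyl 4-hydroxylase, an enzyme of protein folding in the secretory pathway, 0.745) and LOC106609001 (complement C1q-like protein 2, 0.739). For ribonuclease-like 3 they were LOC106613936 (lysosome-associated membrane glycoprotein 3-like, 0.803), trf (transferrin, the iron carrier of plasma, 0.78) and LOC106566833 (properdin-like, a complement activator, 0.76). These values are descriptions over fish that share libraries, and carry no test.

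All of these 12 genes had log2 fold changes below 0 at day 14, from -0.84 to -0.24, beside 49.2% of all genes below 0. They were picked for varying with the 4 genes from fish to fish, so their sign is not independent of the choice of those genes. None was called, with edgeR adjusted p-values from 0.437 to 0.811. With total counts as the scaling the values ran from -0.65 to -0.048, the latter in LOC106613936, beside 19.8% of all genes below 0. LOC106586883 had group means of 18631, 18332, 23161 and 14607 CPM in day 8 control, day 8 exposed, day 14 control and day 14 exposed fish. Transferrin had 29997, 35289, 28602 and 23863 CPM in the same order. In both, as in the 4 genes, the day 14 exposed fish had the lowest mean.

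Secreted proteins of the acute phase and antimicrobial defence formed the list closest in kind to the 4 genes, which were kept out of it. The list holds LOC106586883, LOC106575321, LOC106595673 and LOC106609001, named above for varying with the 4 genes. The day 14 signs of such genes are not independent of the choice of the 4. How far the rest of the list varies with the 4 genes was not measured. Of the 205 matched genes of the list 114 were tested. At day 14, 91 of these had a log2 fold change below 0, beside 49.2% of all genes. Their median was -0.27, beside 0.0042 for all genes. None was called in either direction at day 14 by edgeR or DESeq2, and 33 had an unadjusted p under 0.05. With scaling by total counts 67 were below 0 and the median was -0.10, which relative to all genes was -0.29. The smallest p-values belonged to LOC106579598 (complement C1q-like protein 3), with day 14 means of 1331 and 746 CPM without and with exposure (log2 fold change -0.84 ± 0.20, edgeR adjusted p 0.396), and to LOC106560550 (complement factor H-like), with 3318 and 2437 CPM (-0.45 ± 0.12, adjusted p 0.396). At day 8 the same list had a median of 0.12 with 28 genes below 0; edgeR called none, 11 had a p under 0.05 before adjustment, and 1 was called higher by DESeq2.

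Over time in exposed fish, 18 genes (15.8%) of the acute phase list fell and 5 (4.39%) rose from day 8 to day 14, beside 17.2% and 17.7% of all genes. The share that fell was thus near that of all genes, and the share that rose was smaller. Among those that fell were c9, a component of the complement pore, from a mean of 5057 to 3226 CPM (log2 change -0.65 ± 0.17, edgeR adjusted p 0.00307), and LOC106612537 (alpha-2-macroglobulin-like, a protease inhibitor), from 875 to 559 CPM (-0.65 ± 0.15, adjusted p 0.000567). In control fish 4 genes (3.51%) rose and none fell, beside 10.4% and 8.97% of all genes. Called or not, 91 of the 114 tested had a change below 0 in exposed fish (median -0.33), beside 52.3% of all genes (median -0.029). In controls 34 of the 114 did (median 0.17), beside 50.5% of all genes (median -0.0046). These changes contain the day 14 fish that chose the 4 genes. The iron-regulating peptide gene hepc1 (hepcidin-1) rose in controls from 10.8 ± 13.9 to 379 ± 290.5 CPM (SD). Its log2 change there was 5.13 ± 1 (SE, edgeR adjusted p 0.000414). In exposed fish it had 78.8 ± 207 CPM at day 8 and 231 ± 233 CPM at day 14 (SD). Hepcidins are a multigene family, and values of single members are uncertain.

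For the cytokine chain, the list of interleukin-6 and interleukin-12 family ligands, receptors, JAK kinases, STAT factors and their inhibitors had 58 tested genes. At day 8, 1 of the 58 rose and none fell in edgeR's test, close to the 1.63% of all genes called, and DESeq2 called 1 in each direction. The gene that rose was LOC106601915 (suppressor of cytokine signaling 3-like, an inhibitor of JAK signalling), with 1.08 CPM without and 3.3 CPM with exposure (log2 fold change 1.60 ± 0.43, adjusted p 0.0449). With total counts as the scaling no gene of the list was called higher and 1 was called lower. At day 14 none was called by either tool, 1 had an unadjusted p under 0.05, and 31 of 58 were below 0. The day 14 median was -0.012, which turned to 0.16 with total counts. Relative to all genes, these medians were -0.016 and -0.023. The ligand chain LOC106567437 (interleukin-12 subunit beta-like), the only 1 of 5 entries of that name to be tested, rose from day 8 to day 14 in controls (0.88 ± 0.18, adjusted p 0.000785) and in exposed fish (1.25 ± 0.19, adjusted p 1.86e-06). In the list 6 genes (10.3%) rose and 7 (12.1%) fell over time in controls, beside 10.4% and 8.97% of all genes. In exposed fish 5 (8.62%) rose and 12 (20.7%) fell, beside 17.7% and 17.2%, so most of these shares were near those of all genes.

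For the CD5 antigen-like gene, 19 genes of SRCR and related scavenger proteins were tested. None was called at day 8 or day 14 by edgeR or DESeq2, while 2 and 8 had an unadjusted p under 0.05. The day 14 values went both ways, with 7 of 19 below 0 and a median of 0.084 (0.28 with total counts). Relative to all genes, these medians were 0.079 and 0.092. LOC106582060 (macrophage receptor MARCO-like, a scavenger receptor of macrophages) had 3.47 ± 1.13 CPM without and 6.71 ± 7.73 CPM with exposure (SD, log2 fold change 0.95 ± 0.30, adjusted p 0.437). Exposed fish 9, which also had the highest macrophage and neutrophil sum, held 28.5 CPM of it, and without this fish the log2 fold change was 0.30 ± 0.19 (adjusted p 0.854). LOC106570626 (deleted in malignant brain tumors 1-like) had 2.06 ± 1.75 and 0.727 ± 0.559 CPM (SD, -1.51 ± 0.52, adjusted p 0.457). Day 14 control fish 7, also the highest of its group in the CD5 antigen-like gene, held 5.86 CPM of it. The value of LOC106570626 without that fish was not looked at. The day 8 median of 0.0059 turned to -0.063 with total counts. Relative to all genes, these medians were 0.00073 and -0.0018. Over time, 2 genes (10.5%) rose and none fell in controls, beside 10.4% and 8.97% of all genes, and 2 (10.5%) rose and 1 (5.26%) fell in exposed fish, beside 17.7% and 17.2%.

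For the leucine-rich alpha-2-glycoprotein-like gene, 45 genes of the TGF-beta receptor axis were tested, the second copy among them. At day 8, 1 of the 45 rose and none fell in edgeR's test, beside 1.63% of all genes called, and the counts by DESeq2 were equal. It was LOC106605446 (an SMAD4-like gene, named for the shared mediator of TGF-beta signals), with 0.648 CPM without and 1.64 CPM with exposure (1.34 ± 0.33, adjusted p 0.0277). SMAD4 entries at higher levels, LOC106563948, smad4 and LOC106568180, had day 8 control means of 9.07, 6.4 and 3.84 CPM. Their day 8 log2 fold changes were 0.175, 0.113 and 0.0769, and none was called. At day 14 none was called by either tool and none had an unadjusted p under 0.05, with a median of 0.083. Over time, 10 genes (22.2%) fell in controls and 14 (31.1%) in exposed fish, beside 8.97% and 17.2% of all genes, and none rose. The SMAD4-like gene LOC106568180 fell in controls from 3.84 to 1.91 CPM (-1 ± 0.12, adjusted p 1.93e-07). For ribonuclease-like 3, only 6 of 18 matched ribonuclease and ribonuclease inhibitor genes were tested. None was called at either day by either tool, and 2 had an unadjusted p under 0.05 at day 8 and 0 at day 14. The day 14 median of these genes was -0.007, or 0.17 with total counts. Relative to all genes it was -0.011 with both scalings.

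**Figure D5:**
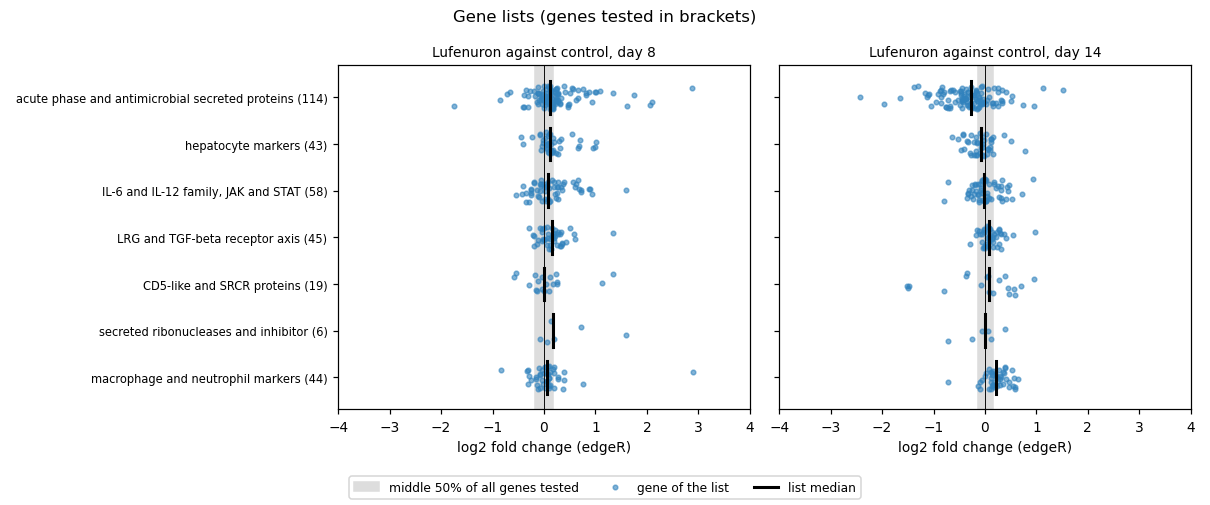
Log2 fold change of exposed over control fish at day 8 and at day 14 for each tested gene of 7 lists, with the list median as a bar and the middle 50% of all tested genes in grey. The acute phase list has its median at 0.12 at day 8 and at -0.27 at day 14, and the macrophage and neutrophil list has it at 0.21 at day 14.

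Of the cell type lists, lymphocyte markers had 1 called gene at day 8, cd37, a surface protein of lymphocytes, which fell from 0.584 to 0.243 CPM (-1.25 ± 0.34, adjusted p 0.0494, but not called with relative log expression, RLE, scaling). The 48 tested lymphocyte markers had a median of -0.062 at day 8 and of 0.14 at day 14. The macrophage and neutrophil median at day 8 was 0.051, or -0.0017 with total counts. Relative to all genes, that macrophage and neutrophil median was 0.046 with TMM and 0.06 with total counts. The 43 tested hepatocyte markers had a median of 0.11 at day 8 and of -0.083 at day 14, the latter turning to 0.10 with total counts. Relative to all genes, the day 14 hepatocyte median was -0.088 with TMM and -0.083 with total counts. The 30 erythrocyte markers had medians of -0.091 and 0.069, and the 19 tested pancreas markers 1.5 and 2. Apart from cd37, edgeR called no gene of these lists or of the macrophage and neutrophil list at day 8 or day 14, with 5 and 9 hepatocyte, 2 and 1 erythrocyte, 2 and 9 pancreas, 1 and 2 macrophage and neutrophil, and 7 and 1 lymphocyte genes at an unadjusted p under 0.05 in that order of days. DESeq2 called 1 lymphocyte gene lower at day 8 and none of the others.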

How the data were processed

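Liver messenger RNA of 40 fish was purified with poly-T beads and sequenced, per the labels' protocols. The deposited table holds the authors' raw counts of reads for every gene, in whole numbers that were not normalized. HISAT2, Cufflinks, HTSeq and DESeq2 are named, per the submitters' processing notes, with neither version nor role. Genome build and strand setting: not given in the sources used here. Hence no coordinates are printed, and values of any near-identical copies are uncertain.

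The 4 genes and all gene lists were chosen with earlier results of these data known. Counts were fitted with edgeR 4.0.16 (limma 3.58.1, R 4.3.3, the package data.table in version 1.17.8): filterByExpr (minimum count 10, minimum total 15) kept 30397 genes holding 99.9% of the counts, scaling was by TMM, and the robust quasi-likelihood fit took in 40 fish with 1 coefficient for each group and no covariate. Benjamini-Hochberg adjustment ran over all tested genes, and the threshold was 0.05. The fit was tested on simulated data. The SE is the size of the log2 fold change over the square root of its F, and intervals of 95% are 1.96 SE wide on each side. The total counts per fish were 43.4 to 76.8 M, and the common biological coefficient of variation was 0.371. For correlations, log2 CPM had a prior count of 2 and permutation tests were run (scipy 1.17.1, numpy 2.4.6, Python 3.11.15); figures used matplotlib 3.10.9.

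Named genes are the 4 genes, entries of the same name, up to 4 called genes with the smallest p of a list (2 where none was called), and the 3 genes most like each of the 4. Lists were filled by symbol or full name, and names wrongly matched were taken out by hand by name alone; 1 gene is in both the cytokine list and the macrophage and neutrophil list. Of 5 entries named interleukin-12 subunit beta-like 1 passed the filter. Names are those of the deposited file, and 3 of the 4 identifiers, all but LOC106571174, have an entry in the Ssal_v3.1 gene table. Alternatives were total counts or RLE as the scaling, no filter on low counts, DESeq2 1.42.0, only the 20 fish of a day, the replicate number as a block, body weight or pancreas markers as a covariate, the fits without 3 light day 14 controls (under 20 g) or without fish rich in pancreas markers, and each fish left out in turn. Gene and protein sequences were not used here.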

Additional observations from a re-analysis of the deposited data

Results flagged for a closer look

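In 64 groups of 10 values (the 4 genes, LOC106571173, the share of LOC106571174 in both copies, and the summed lists) 7 held a fish far from the others. The limit used flags about 1 in 20 groups of independent, normally distributed values. CPM values need not be normally distributed and the groups share fish, so the 7 cannot be set against that rate. LOC106570622 (CD5 antigen-like) was at 4723 CPM in day 14 control fish 7, the highest of its group, and the gap to the next fish was 0.605 of the range. The same fish was highest in the summed lymphocyte markers of its group, at 330.2 CPM (gap 0.504). Day 8 control fish 1 had 326 CPM of lymphocyte markers (gap 0.585). Summed pancreas markers were 86.1 CPM in day 8 control fish 9 (gap 0.641) and 113 CPM in day 14 control fish 9 (gap 0.664). The summed list of interleukin-6 and interleukin-12 family, JAK and STAT genes was 1481 CPM in day 8 exposed fish 7 (gap 0.719). Summed macrophage and neutrophil markers were 616 CPM in day 14 exposed fish 9 (gap 0.851), the fish with the lowest level of LOC106574502 in its group, 31.5 CPM.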

How the results depend on the processing

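At day 14 the 4 genes stayed below 0 in all 10 alternatives and with each fish left out: LOC106570622 from -1.81 to -1.13 (left out -1.52 to -1.08), LOC106571174 from -1.19 to -0.92 (-1.29 to -0.96), LOC106574502 from -0.70 to -0.47 (-0.71 to -0.59) and LOC106604501 from -0.39 to -0.18 (-0.39 to -0.33), the last with total counts, which moved the median of all genes by 0.18. The number of genes called at day 14 was 11 with DESeq2, and 0 to 1 with each fish left out (1 without exposed fish 2). At day 8 LOC106571174 had a mean difference of 0.62 in log2 CPM, with a two-sided permutation p of 0.0316, unadjusted, and adjusted p-values in the refits from 0.187 to 0.477. LOC106574502 turned to -0.0054 with total counts, which moved the day 8 median of all genes by -0.067. It turned to -0.11 without the fish over 50 CPM of pancreas markers. With each fish left out it ranged from -0.042 (without exposed fish 3) to 0.13. The cause of these changes was not tested. The number of genes called at day 8 was 231 with the replicate block, 34 without the fish over 50 CPM of pancreas markers, 287 with these markers as a covariate (the alternatives on pancreas markers, and those given above for the change over time without control fish 7, for LOC106582060 without exposed fish 9 and for the 12 most alike genes, were chosen after seeing the data), 1043 with DESeq2, and 128 (without control fish 3) to 1246 (without control fish 1) with each fish left out. It moved by over 1.5 times in 9 of 20, also without control fish 4 (311), 5 (168), 7 (212) and 9 (265) and exposed fish 2 (161), 4 (220) and 6 (236). Total counts gave 499 lower and 57 higher genes at day 8, against 352 and 142. Replicate numbers showed no clear pairing of the fish, though the check made cannot exclude one. Same-numbered fish correlated above 0.1 in 3 of 10 pairs at day 8 (highest r 0.353) and 1 of 10 at day 14 (0.182). The same-numbered exposed fish was the best match for 3 of 10 controls at day 8 and 1 of 10 at day 14. The block gave day 8 values of -0.27, 0.57, 0.066 and 0.071 for the 4 genes in the order above, with no call of these genes changed. Among correlations, signs turned for the leucine-rich alpha-2-glycoprotein-like gene and ribonuclease-like 3 in day 8 controls (Spearman -0.0909) and, against body weight, for LOC106570622 (Spearman 0.117 in controls of day 14 and 0.0439 in those of day 8; without 2 fish 0.0736 in the latter and 0.28 in exposed fish of day 14), LOC106571174 (without 2 fish -0.406 in controls of day 14 and 0.211 in exposed fish of day 8) and LOC106574502 (without 2 fish -0.321 in controls and 0.452 in exposed fish of day 14, Spearman 0.177 in the latter).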
